A study of Papio anubis with 28 samples.

Results

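Transcripts of 6 genes of Schwann cells and enteric glia, S100B, SOX10, MBP, GFAP, ERBB3 and CDH19, were followed through grafts and native bladders of olive baboons as a possible sign of innervation. They were taken from the count table by gene symbol, 6 of its 27533 genes, and 6 of 6 passed the filter on low counts that left 17177 genes for testing. Gene expression was measured by poly-A RNA sequencing in 28 libraries from 14 animals, all of genotype WT, each animal giving 1 library of the graft and 1 of its own native bladder. Entero Ileum (n = 5) was a segment of ileum set into the bladder, the operation called enterocystoplasty, and Entero Native (n = 5) was the bladder of those animals. SIS Regen (n = 5) and PRS Regen (n = 4) were tissue regenerated on scaffolds that carried primary bone marrow cells, labelled MSC/CD34+ HSPC, and SIS Native (n = 5) and PRS Native (n = 4) were the bladders around them. The same number within an arm marks the same animal, per the codes in the labels, so Entero Ileum 3 and Entero Native 3 come from 1 animal. All native bladders are therefore bladders that carried a graft, and no ungrafted ileum is analysed here. The sources used here spell out neither SIS nor PRS, and give no time of sampling and no position within the graft.

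Peripheral nerves in the bladder wall and gut consist of axons wrapped by Schwann cells, and the ganglia of the gut wall hold enteric glia. Both descend from the neural crest and depend on the transcription factor SOX10. Neuregulin on axons acts through ERBB3 and its partner receptor ERBB2 on Schwann cells and drives their survival and myelination. Several of the 6 genes are also active outside glia: ERBB3 in epithelia, S100B in fat cells, SOX10 in melanocytes, and MBP, through other transcripts of its locus, in blood cells.

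Total counts lay between 20975648 and 35669026 per library. Levels are given as CPM, in which each library's reads are divided by its TMM-scaled total, and a gene was called where edgeR's quasi-likelihood test gave an adjusted p under 0.05 over all 17177 genes. The make-up of the samples differed widely within groups. The summed level of 6 smooth muscle genes ran from 4140 to 90400 CPM in Entero Ileum and from 6780 to 78300 CPM in Entero Native, from 7960 to 46400 in SIS Regen and from 10900 to 88400 in SIS Native, and from 3540 to 83600 in PRS Regen and from 2660 to 72500 in PRS Native. The summed level of 7 epithelial genes ran from 1290 to 4090 CPM in Entero Ileum and from 213 to 2210 in Entero Native, from 988 to 2750 in SIS Regen and from 87.4 to 2300 in SIS Native, and from 131 to 3610 in PRS Regen and from 644 to 1850 in PRS Native. In bulk tissue of this kind, fewer cells of a type and less RNA per cell cannot be told apart.

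Graft and native bladder did not differ past the threshold for any of the 6 genes in any arm, and the intervals were wide. In Entero Ileum against Entero Native, edgeR called 0 of 6 genes, while it called 15.0% of all genes tested. In SIS Regen against SIS Native and in PRS Regen against PRS Native it also called 0 of 6, and here the share of all genes called was 0.00% in both. None of the 6 had an unadjusted p under 0.05 in these 3 comparisons, and DESeq2 called 0 as well. The CPM ranges of graft and native bladder overlapped for every one of the 6 genes in every arm, whereas they did not overlap for 11.4% of all genes in the Entero arm, 1.15% in the SIS arm and 1.20% in the PRS arm. The median log2 fold change over the 6 genes was 0.42 in the Entero arm, -0.19 in the SIS arm and 0.22 in the PRS arm, beside -0.03, 0.03 and 0.02 over all genes tested.

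**Figure D1:**
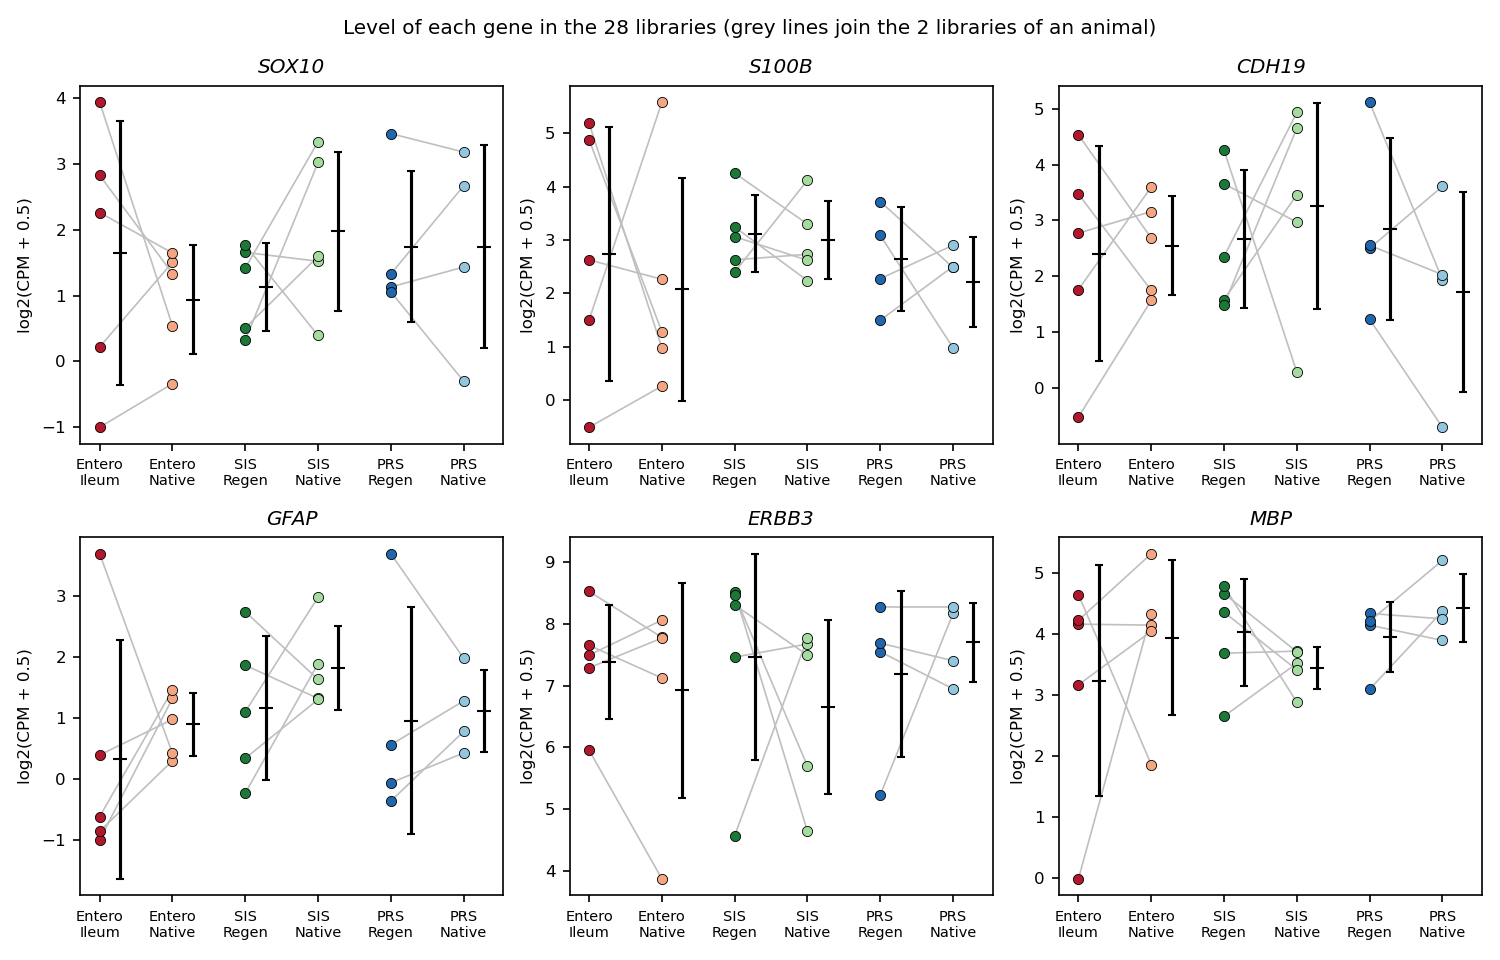
Level of each of the 6 genes, as log2(CPM + 0.5), in the 28 libraries, with graft left of native bladder in each arm, grey lines joining the libraries of an animal, and the mean with its SD beside each group. Graft and native points overlap in every panel, and the grey lines run both up and down within most arms.

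Per kilobase of gene length, ERBB3 had the highest median level over the 28 libraries, 48.2 CPM per kb. MBP followed with 18 and S100B with 7.12, then SOX10 with 1.6, GFAP with 1.03 and CDH19 with 0.877 CPM per kb. Within each gene, the 6 group means could be ordered, but no neighbours in that order differed by more than the larger of their SDs.

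SOX10 (ENSPANG00000003891), the transcription factor of the glial and melanocyte lineages, stood at 6.59, 0, 14.8, 0.665 and 4.29 CPM in Entero Ileum 1 to 5, against 2.02, 0.291, 0.952, 2.34 and 2.63 CPM in Entero Native 1 to 5. In the SIS arm it stood at 2.65, 2.9, 0.924, 0.753 and 2.17 CPM in SIS Regen 1 to 5, against 2.37, 0.814, 2.52, 7.62 and 9.6 CPM in SIS Native 1 to 5. In the PRS arm the values were 2.01, 10.5, 1.69 and 1.58 CPM in PRS Regen 1 to 4, against 5.85, 8.56, 2.2 and 0.312 CPM in PRS Native 1 to 4. The ileum grafts spread most widely, with both the highest library of the study and the one without a read, which at its depth allows up to 0.15 CPM (3 counts, counting error only). Within animals, the graft had more SOX10 than its own bladder in 3 of 5 cases in the Entero arm, 2 of 5 in the SIS arm and 2 of 4 in the PRS arm. The log2 fold change was 1.67 in the Entero arm (SE 1, interval -0.39 to 3.74, edgeR adjusted p = 0.287). It was -1.29 in the SIS arm (interval -3.33 to 0.75) and -0.11 in the PRS arm (interval -2.35 to 2.14), with an adjusted p of 1 in both. Group means were 5.26 ± 5.95 CPM in Entero Ileum and 1.65 ± 0.989 in Entero Native, 1.88 ± 0.987 in SIS Regen and 4.58 ± 3.8 in SIS Native, and 3.93 ± 4.36 in PRS Regen and 4.23 ± 3.69 in PRS Native (SD).

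SOX10 was the 1 gene of the 6 with an unadjusted p under 0.05 in any of the 13 comparisons made. Its SIS change minus its Entero change was -2.96 (SE 1.41, interval -5.86 to -0.06, unadjusted p = 0.0459), and edgeR's adjusted p was 0.246, so it did not pass. For this difference of changes edgeR called 6.56% of all genes and 0 of the 6. DESeq2 gave -3.05 with an adjusted p of 0.121. None of the 6 smooth muscle genes passed in the SIS arm, and their mean log2(CPM + 1) lay between 9.68 and 12.3 in SIS Regen, against 10.16 to 13.43 in SIS Native. With that mean as a term in the edgeR model, chosen after seeing the data, the difference of changes was -1.78 (adjusted p = 0.329). The SIS change itself was -0.28 instead of -1.29, while the Entero change was 1.5 instead of 1.67. SOX10 ran with that same mean over the 28 libraries (r = 0.8), so a shift of its changes with this term was to be looked for beforehand. The part of smooth muscle in the difference was not tested.

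CDH19 (ENSPANG00000006220), a cadherin of Schwann cell precursors and of mature nerve glia, stood at 22.6, 0.201, 10.6, 2.9 and 6.34 CPM in Entero Ileum 1 to 5, against 5.93, 2.47, 2.86, 11.6 and 8.43 CPM in Entero Native 1 to 5. It stood at 12.1, 18.6, 2.5, 2.31 and 4.61 CPM in SIS Regen 1 to 5, against 7.33, 0.723, 10.5, 24.6 and 30 CPM in SIS Native 1 to 5. The PRS arm had 5.16, 34.1, 5.38 and 1.85 CPM in PRS Regen 1 to 4, against 11.7, 3.34, 3.59 and 0.117 CPM in PRS Native 1 to 4. The highest level of the study was that of PRS Regen 2, and SIS Native 4 and SIS Native 5 were high as they were for SOX10. CDH19 was higher in the graft in 2 of 5, 2 of 5 and 3 of 4 animals of the Entero, SIS and PRS arms. The log2 fold change was 1.31 in the PRS arm (SE 1.12, interval -0.99 to 3.61), and -0.18 without PRS Regen 2. It was 0.45 in the Entero arm (interval -1.58 to 2.48), and -0.32 without Entero Ileum 1. In the SIS arm it was -0.87 (interval -2.91 to 1.17), and -0.02 with the smooth muscle mean in the model. With that term it was 0.92 in the Entero arm and 1.6 in the PRS arm.

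GFAP (ENSPANG00000021287), the intermediate filament of enteric glia and non-myelinating Schwann cells, rested on few reads in most grafts and on 1 library in each of 2 arms. It stood at 0, 0.0501, 12.4, 0.808 and 0.15 CPM in Entero Ileum 1 to 5, against 1.99, 0.726, 0.833, 1.46 and 2.24 CPM in Entero Native 1 to 5. Of the 275 GFAP reads in the 5 ileum grafts, 254 were in Entero Ileum 3. The level was lower in the graft in 4 of 5 animals, while the log2 fold change was 0.88 (SE 1.17, interval -1.53 to 3.29, edgeR adjusted p = 0.682). Without Entero Ileum 3 it was -2.5 (adjusted p = 0.139), and with the animal as a block it was -2.39 (adjusted p = 0.307), so its sign depended on that library and on the pairing.

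In the PRS arm GFAP stood at 0.97, 12.4, 0.454 and 0.276 CPM in PRS Regen 1 to 4, against 1.92, 3.43, 0.839 and 1.21 CPM in PRS Native 1 to 4. It was lower in the graft in 3 of 4 animals, and PRS Regen 2 was again far above the other grafts. The log2 fold change was 0.93 (interval -1.76 to 3.62), and -1.7 without PRS Regen 2. SIS Regen 1 to 5 had 6.17, 3.13, 0.761, 1.64 and 0.349 CPM, against 2.59, 1.99, 1.96, 7.37 and 3.2 CPM in SIS Native 1 to 5. Here the ranges overlapped, the level was lower in the graft in 3 of 5 animals, and the log2 fold change was -0.5 (interval -2.89 to 1.88). Over the 3 arms GFAP was thus lower in the graft in 10 of 14 animals, and edgeR's test passed in none of the arms. For the other genes the graft was lower in 7 of 14 animals (SOX10, CDH19 and MBP), 6 (S100B) and 5 (ERBB3).

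S100B (ENSPANG00000019948), a calcium-binding protein long used as a glial marker, stood at 5.68, 0.201, 36, 2.33 and 29 CPM in Entero Ileum 1 to 5, against 4.3, 0.697, 1.47, 47.5 and 1.93 CPM in Entero Native 1 to 5. Entero Native 4 was the highest library of the study for S100B and the other 4 of its group lay under 5 CPM. The log2 fold change was 0.39 (SE 0.96, interval -1.59 to 2.37, edgeR adjusted p = 0.844). Without Entero Native 4 it was 2.8 with an adjusted p of 0.041, the 1 setting in which a graft against native comparison called any of the 6 genes. That library also held the most fat cell transcripts: the 7 adipocyte genes summed to 1060 CPM there, against 90.2 CPM in the lowest library of its group, and their part in the result was not tested.

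In the SIS arm S100B stood at 18.6, 8.98, 5.68, 7.86 and 4.77 CPM in SIS Regen 1 to 5, against 9.35, 4.22, 6.15, 5.65 and 16.9 CPM in SIS Native 1 to 5. In the PRS arm it stood at 2.32, 12.7, 8.01 and 4.34 CPM in PRS Regen 1 to 4, against 5.17, 5.1, 1.47 and 6.98 CPM in PRS Native 1 to 4. Both arms overlapped throughout, with the graft higher in 3 of 5 and 2 of 4 animals. The log2 fold changes were 0.12 (interval -1.86 to 2.1) and 0.55 (interval -1.68 to 2.77), both with an adjusted p of 1.

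MBP (ENSPANG00000023229), a major protein of compact myelin, stood at 17.3, 18.1, 0.487, 24.4 and 8.44 CPM in Entero Ileum 1 to 5, against 17.1, 39.1, 19.5, 3.11 and 15.9 CPM in Entero Native 1 to 5. It stood at 12.3, 5.75, 19.9, 24.7 and 26.9 CPM in SIS Regen 1 to 5, against 12.6, 10.9, 10.1, 12.5 and 6.83 CPM in SIS Native 1 to 5. In the PRS arm it stood at 17.1, 7.99, 19.6 and 17.9 CPM in PRS Regen 1 to 4, against 14.3, 20.1, 18.4 and 36.2 CPM in PRS Native 1 to 4. The lowest library of the Entero grafts was Entero Ileum 3 and the lowest of the PRS grafts was PRS Regen 2, the libraries with the most SOX10 and GFAP. Log2 fold changes were -0.46 (interval -1.7 to 0.77), 0.76 (interval -0.48 to 2) and -0.51 (interval -1.89 to 0.87) in the Entero, SIS and PRS arms, and none passed.

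MBP was also the 1 gene of the 6 whose ranges did not overlap between 2 groups in any comparison of single groups. PRS Native lay between 14.3 and 36.2 CPM, against 6.83 to 12.6 CPM in SIS Native. For these native bladders 2.35% of all genes had ranges that did not overlap, and 0.00% were called. The log2 fold change was 1.07 (SE 0.63, interval -0.23 to 2.37, edgeR adjusted p = 0.81).

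ERBB3 (ENSPANG00000016193), the neuregulin receptor, stood at 369, 201, 156, 61.5 and 180 CPM in Entero Ileum 1 to 5, against 220, 139, 218, 14.1 and 267 CPM in Entero Native 1 to 5. It stood at 176, 23.2, 317, 365 and 354 CPM in SIS Regen 1 to 5, against 204, 218, 180, 24.4 and 51.3 CPM in SIS Native 1 to 5. PRS Regen 1 to 4 had 187, 36.9, 311 and 206 CPM, against 123, 288, 311 and 169 CPM in PRS Native 1 to 4. Most libraries lay above 100 CPM and a few grafts and native bladders lay far below. Log2 fold changes were 0.17 (interval -1.23 to 1.58), 0.87 (interval -0.55 to 2.28) and -0.27 (interval -1.84 to 1.31) in the Entero, SIS and PRS arms. The graft was higher in 3 of 5 animals of the Entero arm, 3 of 5 of the SIS arm and 2 of 4 of the PRS arm, where 1 further animal had equal levels.

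**Figure D2:**
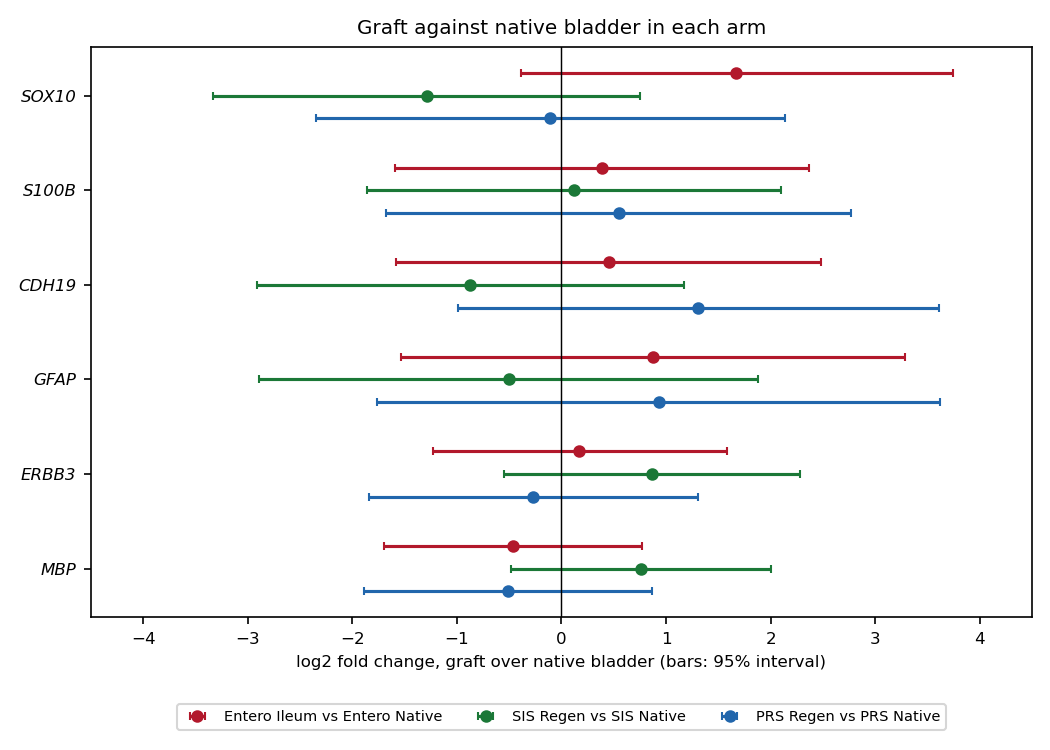
Log2 fold change of graft over native bladder for the 6 genes in the Entero, SIS and PRS arms, with 95% intervals from edgeR's quasi-likelihood fit. All 18 intervals cross 0, and the widest, those of GFAP, reach from -2.89 to 1.88 in the SIS arm and from -1.76 to 3.62 in the PRS arm.

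The remaining comparisons between groups called none of the 6 genes either. Taking the SIS and PRS arms as 1, grafts against native bladders gave log2 fold changes between -0.7 (SOX10) and 0.33 (S100B), and 0.00% of all genes were called. The PRS change minus the Entero change gave 0 of 6 beside 3.47% of all genes, and the PRS change minus the SIS change gave 0 of 6 beside 0.00%. Between grafts, SIS Regen against Entero Ileum gave 0 of 6 beside 21.1% of all genes, PRS Regen against Entero Ileum 0 of 6 beside 7.21% of all genes higher and 6.75% lower, and PRS Regen against SIS Regen 0 of 6 beside 0.00%. In the first pair SOX10 had the smallest p (log2 fold change -1.49, interval -3.54 to 0.57, adjusted p = 0.308). GFAP gave -0.15 there and 0.4 in PRS Regen against Entero Ileum. Without Entero Ileum 3 these became 3.23 (adjusted p = 0.0476) and 3.78 (adjusted p = 0.0363), both called. Between native bladders of the 3 arms, 0 of 6 genes and 0.00% of all genes were called in each pair. DESeq2 called 0 of 6 in all of these, and at unadjusted p under 0.05 the count was 0 in each. Ranges that did not overlap were likewise found for 0 of the 6 between SIS Regen and Entero Ileum, where 12.6% of all genes had them, and between PRS Regen and Entero Ileum, with 11.2%. The same held between PRS Regen and SIS Regen (1.43% of all genes), between SIS Native and Entero Native (1.02%) and between PRS Native and Entero Native (0.763%).

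The 6 genes did not all vary together between libraries. Over the 28 libraries, each taken as its deviation from its group mean on the log2(CPM + 1) scale, SOX10 ran with CDH19 (r = 0.87), GFAP (0.66) and S100B (0.59). Against MBP it had an r of -0.65 and against ERBB3 -0.31. These are descriptions over libraries that share their depth and tissue make-up. SOX10 and CDH19 had an r of 0.9 and 0.83 with the mean of the 23 other glia genes, and of 0.8 and 0.77 with that of the smooth muscle genes. GFAP and S100B had 0.78 and 0.65 with the glia genes, while MBP and ERBB3, with -0.77 and -0.56, went against their label as glial genes. Which cells the transcripts came from was not tested.

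Of the 15119 other genes with a symbol that were ranked, those most like SOX10 were GRIK2 (r = 0.92), a glutamate receptor subunit, NRN1 (0.91), a protein of neurite growth, and LGI4 (0.9), which Schwann cells secrete and need to myelinate. PMP22, a myelin protein of peripheral nerve, came 4th with 0.89, and SCN7A, a sodium channel of non-myelinating Schwann cells, had 0.87. The glia list was not uniform in this. A negative r with SOX10 was found for CNP (-0.54), SOX2 (-0.43), TFAP2A (-0.26), POU3F1 (-0.15), EGR2 (-0.12), CADM4 (-0.04), PRX (-0.04) and DHH (-0.03). CDH19 was most like NRP2 (0.91), a semaphorin receptor, PKD2 (0.9), a cation channel, and CPED1 (0.9), and SCN7A came 4th with 0.89. Among glia list genes with a negative r with CDH19 were SOX2 (-0.48), CNP (-0.41), TFAP2A (-0.4) and CADM4 (-0.3). GFAP was most like NMNAT2 (0.86), an enzyme that maintains axons, KCNJ8 (0.85), a potassium channel of vessel walls, and ADRB3 (0.85), the adrenergic receptor that relaxes the detrusor muscle.

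The other 3 genes, ERBB3, S100B and MBP, were ranked in the same way. ERBB3 was most like SIPA1L3 (r = 0.98), PTPRF (0.97), a receptor phosphatase of epithelia, and SGPL1 (0.96). ERBB2, its partner receptor, came 10th and GRHL2, a transcription factor of epithelia, 11th, both at 0.95. S100B was most like PPP1R1A (0.84), a phosphatase inhibitor, TIMP4 (0.79), a protease inhibitor abundant in fat, and PLIN4 (0.79), a coat protein of fat droplets. MBP was most like TTF2 (0.91), a transcription termination factor, MSI2 (0.88), an RNA-binding protein, and SLFN5 (0.88). Against PMP22, the myelin protein, its r was -0.72, and with CNP, an enzyme of myelin-forming cells, it was 0.4.

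**Figure D3:**
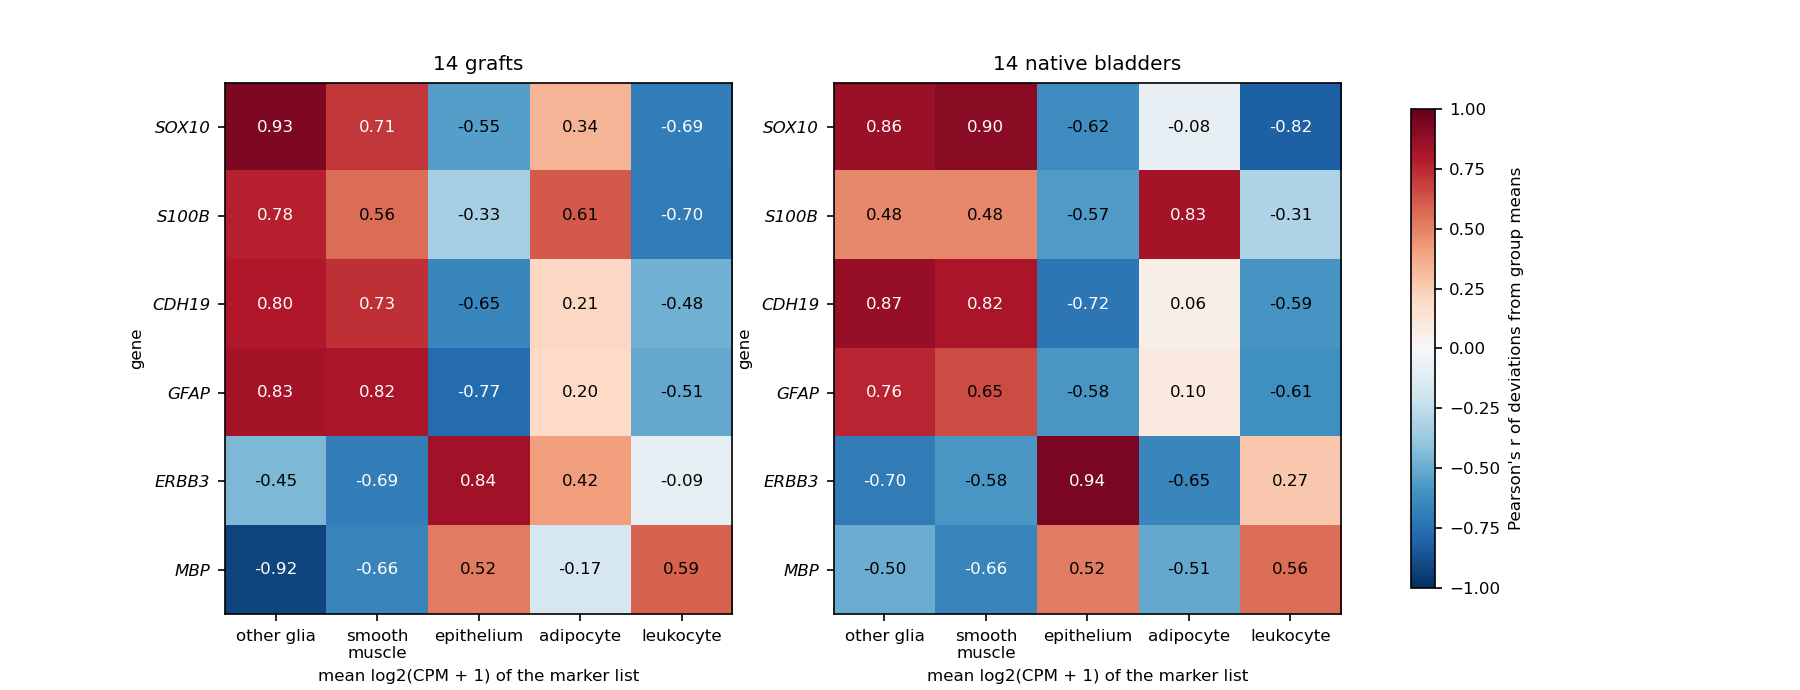
Pearson's r between each of the 6 genes and the mean of 5 marker lists, as deviations from group means, over 14 grafts on the left and 14 native bladders on the right. SOX10 has 0.93 and 0.86 with the other glia genes, MBP -0.92 and -0.5, and ERBB3 0.84 and 0.94 with epithelial genes.

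Relations of the 6 genes with marker lists were tested over 14 grafts and over 14 native bladders apart, as deviations from group means, by permuting libraries within groups. The family was chosen after seeing the data and held 60 relations. SOX10 ran with the mean of the 23 other genes of glia and the Schwann lineage in grafts (r = 0.93, rho = 0.96, permutation p = 1e-05 for both, the smallest 100000 permutations can give, adjusted p = 0.0006). Without the 2 libraries farthest from the median of the list, r was 0.87. In native bladders r was 0.86 and rho 0.82 (permutation p = 0.00073 and 0.00199, adjusted p = 0.00487 and 0.0143), and r was 0.82 without 2 libraries. CDH19 had r = 0.8 and rho = 0.9 in grafts (permutation p = 0.00298 and 0.00045, adjusted p = 0.0163 and 0.009) and r = 0.87 and rho = 0.86 in native bladders (adjusted p = 0.0036 and 0.0109 by permutation), with 0.88 and 0.83 without 2 libraries.

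MBP ran the other way. With the other glia genes it had r = -0.92 and rho = -0.8 in grafts (permutation p = 0.00058 and 0.00171, adjusted p = 0.00465 and 0.0143), and r = -0.82 without 2 libraries. In native bladders it had r = -0.5 and rho = -0.55 (permutation p = 0.0253 and 0.039, adjusted p = 0.0475 and 0.078), and -0.69 without 2 libraries. For GFAP, r was 0.83 in grafts (rho = 0.59, adjusted p = 0.0246 and 0.0873 by permutation), and it rested on 2 libraries, being 0.51 without them. In native bladders GFAP had r = 0.76 (rho = 0.64, adjusted p = 0.0174 and 0.0581 by permutation), and 0.63 without 2 libraries.

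With leukocyte genes the signs were turned round. SOX10 had r = -0.69 and rho = -0.65 in grafts (adjusted p = 0.0804 and 0.1 by permutation) and r = -0.82 and rho = -0.8 in native bladders (adjusted p = 0.00672 and 0.0143 by permutation), with -0.68 without 2 libraries. MBP had r = 0.59 and rho = 0.64 in grafts (adjusted p = 0.107 and 0.0735 by permutation) and r = 0.56 and rho = 0.4 in native bladders (adjusted p = 0.0944 and 0.279 by permutation), so neither passed.

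ERBB3 tracked the epithelium. In grafts r with the mean of the epithelial genes was 0.84 and rho 0.75 (permutation p = 0.00046 and 0.00129, adjusted p = 0.0046 and 0.0143), and r was 0.73 without 2 libraries. In native bladders r was 0.94 and rho 0.88 (permutation p = 0.00043 and 0.00195, adjusted p = 0.0046 and 0.0143), and r was 0.88 without 2 libraries. The 5 libraries with the least ERBB3, SIS Regen 2, PRS Regen 2, Entero Native 4, SIS Native 4 and SIS Native 5, were also the 5 with the lowest epithelial means, 5.15, 3.42, 3.87, 2.99 and 4.16.

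S100B ran with fat cell genes as well as glial ones. With the mean of the adipocyte genes r was 0.61 and rho 0.56 in grafts (adjusted p = 0.0396 and 0.1 by permutation), and r was 0.67 without 2 libraries. In native bladders r was 0.83 and rho 0.79 (adjusted p = 0.0389 and 0.0192 by permutation), and r was 0.48 without the 2 farthest libraries, so that relation rested on them. With the other glia genes S100B had r = 0.78 and rho = 0.78 in grafts (adjusted p = 0.0246 and 0.0353 by permutation), against r = 0.48 and rho = 0.38 in native bladders (adjusted p = 0.0799 and 0.23).

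**Figure D4:**
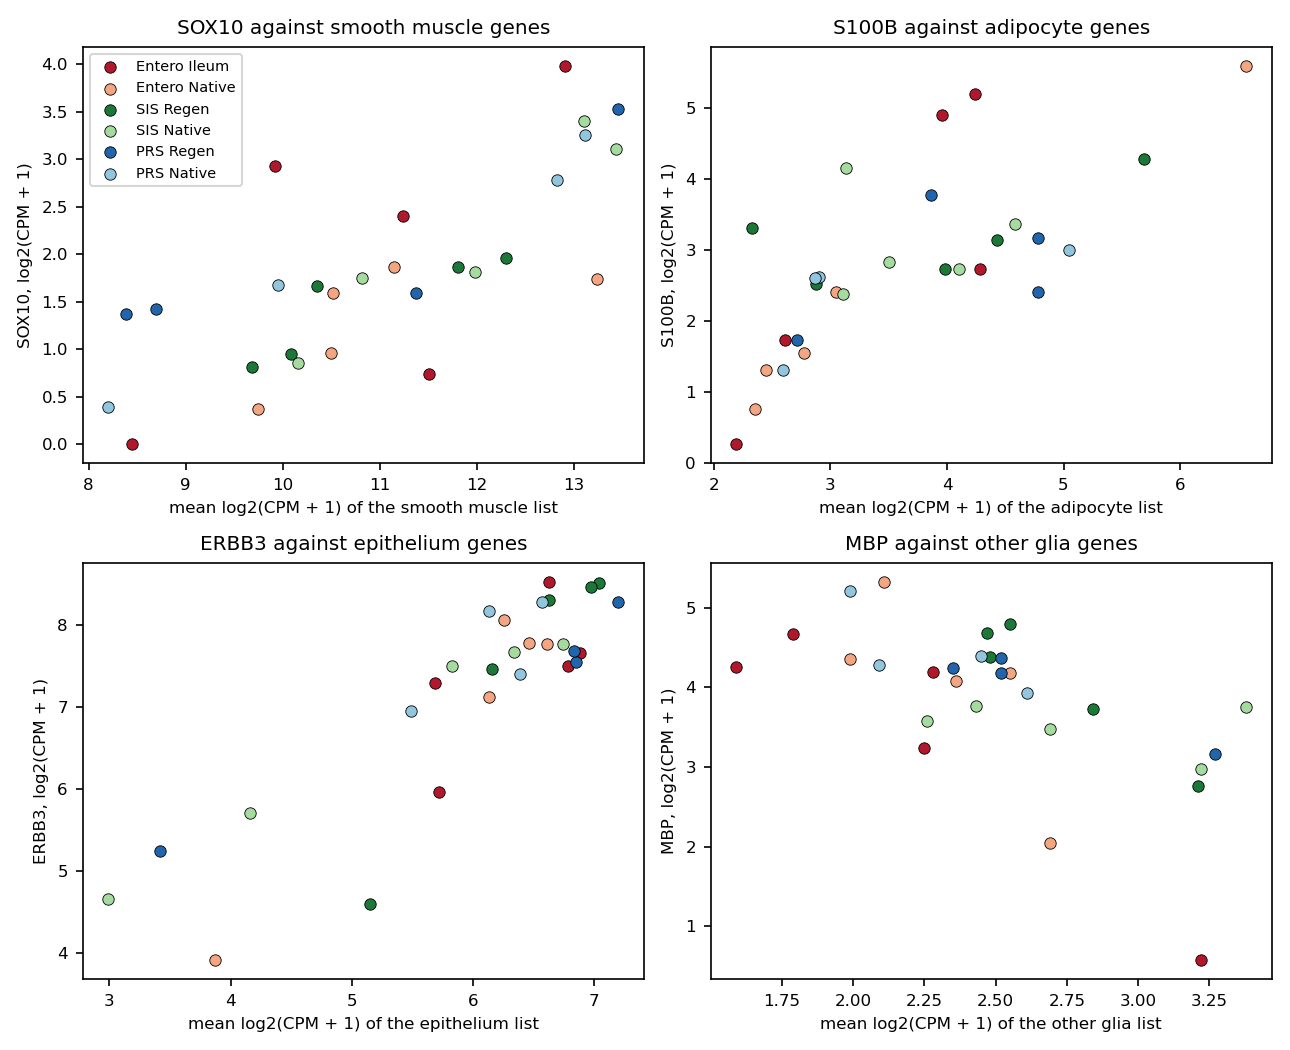
Each point is 1 of the 28 libraries: SOX10 against the mean of smooth muscle genes, S100B against adipocyte genes, ERBB3 against epithelial genes and MBP against the other glia genes, all as log2(CPM + 1). SOX10, S100B and ERBB3 run upward, with the isolated S100B point at an adipocyte mean of 6.57 being Entero Native 4, and MBP runs downward.

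SOX10 and smooth muscle transcripts went together. Among the 14 native bladders, on the levels themselves, r between SOX10 and the mean of the smooth muscle genes was 0.87 and rho 0.85 (permutation p = 6e-05 and 0.00029, adjusted p = 0.00042 and 0.00203 over 7 relations), and r was 0.82 without 2 libraries. As deviations from group means, r was 0.71 and rho 0.73 in grafts (adjusted p = 0.0246 and 0.026 by permutation), and it rested on 2 libraries, being 0.52 without them. In native bladders r was 0.9 and rho 0.89 (adjusted p = 0.0036 and 0.009 by permutation), and r was 0.91 without 2 libraries. The 5 libraries with the most SOX10 had smooth muscle means at the upper end: 12.91 in Entero Ileum 3, 13.46 in PRS Regen 2, 13.43 in SIS Native 4, 13.1 in SIS Native 5 and 13.12 in PRS Native 2. Exceptions were Entero Ileum 1, the next in SOX10 with 6.59 CPM and a smooth muscle mean of 9.92, and Entero Native 4, with a mean of 13.24 and 2.34 CPM of SOX10. As deviations, GFAP had r = 0.82 and rho = 0.78 with smooth muscle genes in grafts (adjusted p = 0.00465 and 0.0179 by permutation), and r = 0.75 without 2 libraries. In native bladders GFAP had r = 0.65 and rho = 0.65 (adjusted p = 0.0469 and 0.0676 by permutation). MBP had r = -0.66 with smooth muscle genes in both tissues (adjusted p = 0.0174 for each by permutation), and -0.65 in grafts and -0.51 in native bladders without 2 libraries.

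Of the other 6 relations in native bladders, SOX10 with CDH19 gave r = 0.77 and rho = 0.79 (permutation p = 0.00162 and 0.00113, adjusted p = 0.00283 and 0.00395), and r = 0.89 without 2 libraries. SOX10 with GFAP gave r = 0.76 and rho = 0.75 (permutation p = 0.00106 and 0.00254, adjusted p = 0.00247 and 0.00593), and r = 0.73 without 2 libraries. ERBB3 with the epithelial genes gave r = 0.93 and rho = 0.72 (adjusted p = 0.000875 and 0.00938 by permutation). SOX10 with S100B (r = 0.37), with MBP (-0.45) and with ERBB3 (-0.33) did not pass (adjusted permutation p = 0.226, 0.147 and 0.261).

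Melanocytes also express SOX10, and their defining genes were uneven in level. TYR, the rate-limiting enzyme of melanin synthesis, reached at most 0.281 CPM in any library and had 0 reads in Entero Ileum, Entero Native and PRS Native. DCT, a further melanin enzyme, averaged under 1 CPM in each of the 6 groups. TYRP1, another melanin enzyme, had 295 reads in Entero Ileum and 0 in the native bladders and in the regenerated grafts, at least 98.9-fold higher in Entero Ileum than in Entero Native when the group without reads is set at 3 counts. PMEL, a melanosome protein, averaged 1.45 ± 1.14 CPM in Entero Ileum and 7.94 ± 4.44 CPM in Entero Native (SD, n = 5 each; log2 fold change -2.45), a call lost in 12 of 16 alternatives. In the other groups it averaged 4.54 in SIS Regen and 3.3 in SIS Native, and 2.69 in PRS Regen and 4.79 in PRS Native. MITF, the master transcription factor of melanocytes, which other cells also express, averaged between 5.34 CPM in Entero Ileum and 19.6 CPM in PRS Regen. As deviations from group means over the 28 libraries, the mean of the 5 tested melanocyte genes had an r of 0.46 with SOX10 and 0.72 with CDH19. The 5 genes differed in sign. With SOX10, MITF had 0.68, TYRP1 0.32 and DCT 0.26, but PMEL -0.29 and MLANA -0.65. With CDH19, MITF had 0.84, TYRP1 0.39 and DCT 0.43, but PMEL -0.4 and MLANA -0.47. The part of melanocytes in the results for SOX10 and CDH19 was not tested.

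Other genes of glia and the Schwann lineage gave 1 call between graft and native bladder over the 3 arms. In Entero Ileum against Entero Native, 0 of 23 tested were higher, 1 was lower and 22 did not pass, with a median log2 fold change of -0.14. The lower gene was TFAP2A (log2 fold change -2.74, SE 0.92, edgeR adjusted p = 0.043), which acts in the neural crest and also in stratified epithelia such as urothelium, and this call was lost in 11 of 16 alternatives. L1CAM, an adhesion molecule of axons and Schwann cells, gave 2.42 (interval 0.61 to 4.24, adjusted p = 0.0646). In the SIS arm 0 of 23 passed, with 2 at unadjusted p under 0.05 and a median of -0.02, and in the PRS arm 0 of 23 passed, with 2 at unadjusted p under 0.05 and a median of 0.62.

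Between grafts, 4 of 23 other glial genes were higher and 0 lower in SIS Regen against Entero Ileum, where 21.1% of all genes tested were called. In PRS Regen against Entero Ileum 3 of 23 were higher and 0 lower, beside 7.21% of all genes higher and 6.75% lower. Taking both directions together, the share of glial genes called was no larger than that of all genes, though all of the glial calls were higher. SOX2, a transcription factor of glial progenitors and also of epithelia, averaged 12.9 ± 11.3 CPM in SIS Regen and 0.709 ± 1.06 CPM in Entero Ileum (log2 fold change 4.18, SE 1.11, edgeR adjusted p = 0.00845). In PRS Regen it averaged 19.9 ± 16 CPM (log2 fold change 4.81 against Entero Ileum, adjusted p = 0.00603). TFAP2A was higher in both as well, by 3.43 and 3.8. The epithelial factor GRHL2 was also higher in SIS Regen than in Entero Ileum (2.28, edgeR adjusted p = 0.0324), a call lost in 7 of 14 alternatives. EPCAM, an adhesion protein abundant in gut epithelium, was lower (-2.73, edgeR adjusted p = 0.0379), a call lost in 6 of 14. The part of epithelium in these glial list calls was not tested.

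PMP2, a lipid-binding protein of peripheral myelin, had 62 reads in SIS Regen and 0 in Entero Ileum, at least 18.8-fold higher, a call kept in 3 of 13 alternatives. It had 199 reads in PRS Regen, at least 76.3-fold higher than in Entero Ileum, and that call was lost without PRS Regen 2. POU3F1, a transcription factor that times myelination, had 108 reads in SIS Regen and 1 in Entero Ileum, 98.2 times as much after scaling for depth (95% counting interval 17.3 to 3910). PRS Regen had 0 reads of it. The native bladders held both genes: POU3F1 had 108 reads in SIS Native, 35 in PRS Native and 44 in Entero Native. PMP2 had 364 reads in SIS Native, 23 in PRS Native and 37 in Entero Native.

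Of the neuregulins, ligands of the ErbB receptors, NRG2 and NRG4 were lower in Entero Ileum than in Entero Native. They were 2 of 6 tested ligands and receptors, with 0 higher, beside 15.0% of all genes called. NRG2 averaged 0.905 ± 0.635 CPM in Entero Ileum and 5.71 ± 2.89 CPM in Entero Native (log2 fold change -2.65, SE 0.65, edgeR adjusted p = 0.00569). NRG4 averaged 0.315 ± 0.219 CPM in Entero Ileum and 5 ± 3.44 CPM in Entero Native (log2 fold change -3.97, SE 1.01, adjusted p = 0.00812, and 0.0727 with the animal as a block). NRG1, the main ligand on axons, gave 0.1 (interval -2.11 to 2.32) and ERBB2 0.14 (interval -1 to 1.29). In the SIS and PRS arms 0 of 6 passed. NRG1 there gave 3.17 in SIS Regen against SIS Native (interval 0.77 to 5.57, adjusted p = 0.846), with 80.1 CPM in the highest of the SIS Regen libraries and 3.43 in the lowest.

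Both NRG2 and NRG4 were higher in regenerated grafts than in ileum. NRG2 differed by 2.95 (adjusted p = 0.00208) in SIS Regen and 2.69 (adjusted p = 0.00755) in PRS Regen, and NRG4 by 3.99 (adjusted p = 0.00632) and 3.18 (adjusted p = 0.0357) in edgeR. In SIS Regen both calls were kept in 14 of 14 alternatives. In PRS Regen the NRG4 call was lost in 7 of 13 alternatives. The NRG2 call there was lost in 1 of 13, with only the compared groups (edgeR adjusted p = 0.146). EGFR, a related receptor, was higher in SIS Regen by 1.27 (adjusted p = 0.0458), a call lost in 9 of 14 alternatives.

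Of 15 tested genes of neurons, whose axons the glia accompany, 3 were higher in Entero Ileum than in Entero Native and 0 lower. For all genes tested the share called was 15.0% in both directions together, with 1326 of 17177 genes higher and 1259 lower. Of the 15 neuronal genes, 12 had a positive log2 fold change and 3 a negative one. Their median was 1.87, against -0.03 over all genes tested, and 6 had an unadjusted p under 0.05 in edgeR. SYP, a synaptic vesicle protein also found in endocrine cells of the gut, averaged 23.4 ± 19 CPM in Entero Ileum and 1.24 ± 0.587 CPM in Entero Native (log2 fold change 4.24, SE 0.78, edgeR adjusted p = 4e-04). VIP, a transmitter of enteric neurons, averaged 25.8 ± 21.7 CPM in Entero Ileum and 0.18 ± 0.272 CPM in Entero Native (7.11, SE 1.65, adjusted p = 0.00586, and 0.102 with the animal as a block). TAC1, the precursor of substance P, differed by 4.81 (SE 1.21, adjusted p = 0.00735).

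In regenerated tissue 0 of 15 neuronal genes passed against native bladder, with 5 at unadjusted p under 0.05 in the SIS arm and 3 in the PRS arm. The mean log2(CPM + 1) of the neuronal list was 2.8 in SIS Native 4, against 0.8 to 0.87 in the other SIS Native libraries, and that library also held 7.37 CPM of GFAP and 7.62 CPM of SOX10. In grafts the neuronal mean was highest in Entero Ileum 3, at 2.77, the graft with the most SOX10 and GFAP, while PRS Regen 2, second in SOX10 among grafts, had 0.72.

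Against the ileum grafts, 3 of 15 neuronal genes were lower in SIS Regen and 2 in PRS Regen, and 0 were higher in either. Of all 17177 genes tested, 1874 were higher and 1753 lower in SIS Regen, 21.1% together. In PRS Regen 7.21% were higher and 6.75% lower. Of the 15 neuronal genes, 11 had a negative log2 fold change and 4 a positive one in each comparison. Their medians were -1.72 in SIS Regen and -1.54 in PRS Regen, against 0.04 and 0.05 over all genes tested. SYP averaged 1.06 ± 0.325 CPM in SIS Regen and 1.07 ± 0.2 CPM in PRS Regen, with log2 fold changes of -4.46 and -4.44 against Entero Ileum (edgeR adjusted p = 0.000206 and 0.000935). VIP had 0 reads in SIS Regen and 2623 in Entero Ileum, at least 962-fold lower, and 3 reads in PRS Regen, which leaves Entero Ileum 760 times higher after scaling for depth (95% counting interval 260 to 3690). PRPH, a neurofilament of peripheral neurons, was lower in SIS Regen (log2 fold change -5.6, adjusted p = 0.023), a call lost in 3 of 14 alternatives, one of them without Entero Ileum 3.

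Lists of other cell types were also compared between Entero Ileum and Entero Native, where 15.0% of all genes were called. Epithelial genes gave 1 higher of 6 tested (EPCAM, log2 fold change 3.36), smooth muscle genes 0 of 6 with 1 at unadjusted p under 0.05, adipocyte genes 1 lower of 7 (FABP4, -1.88) and leukocyte genes 1 higher of 7 (CD68, 1.82). The FABP4 call was lost in 4 of 16 alternatives, among them the animal as a block and the fit without Entero Native 4. The EPCAM and CD68 calls were kept in 16 of 16. In the SIS and PRS arms these lists gave 0 calls between graft and native bladder in edgeR. Their median log2 fold changes were 0.93 and 0.1 for epithelium, -0.97 and -0.29 for smooth muscle, 0.64 and 0.43 for adipocytes and 0.57 and -1.42 for leukocytes in the SIS and PRS arms.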

How the data were processed

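The deposited values were raw read counts per gene, with a gene length beside them that was used only for levels per kilobase. The submitters' processing notes name featureCounts 1.5.0-p3, the aligner HISAT2 2.0.5 and the assembler StringTie 1.3.3b, and the labels' protocols describe dUTP directional libraries. No source used here gives the genome build, the annotation or the strand setting used in counting, and overlapping and antisense genes may therefore share reads.

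The members and lists were chosen with earlier results of these data known. All 28 libraries entered 1 edgeR 4.0.16 quasi-likelihood model (R 4.3.3) with 6 group means, filterByExpr at a minimum count of 10, TMM scaling and Benjamini-Hochberg adjustment over 17177 genes. SEs were taken back from the F statistic, as the absolute log2 fold change over its square root, and 95% intervals rest on them. The fit was also run on simulated data, drawn gene by gene without the differences in make-up between libraries. Its outcome is not reported here. Changes within animals used log2(CPM + 0.5). Lists were other genes of glia and the Schwann lineage, neuregulins and ErbB receptors, neurons, epithelium, smooth muscle, adipocytes, melanocytes and leukocytes. The text names the 6 genes, every list gene called in a comparison it describes, otherwise up to 4 with the smallest p, and the 3 genes most like each of the 6. Nearby values and defining markers were added for context after their values were seen. Some list genes are not reported here. Correlations were tested with 100000 permutations (numpy 2.4.6). Alternatives were RLE size factors, no count filter, the animal as a block, the compared groups alone, DESeq2 1.42.0, each library left out, and, chosen after seeing the data, the smooth muscle mean as a term. The animal pairs graft and native bladder by the codes in the labels; deviations from group means had an r of -0.3 to 0.71 within the 14 animals. Labels do not say that libraries of a group were prepared apart, but they come from different animals. Counting intervals and floors cover counting error only.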

Additional observations from a re-analysis of the deposited data

Results flagged for a closer look

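Among the 36 groups of 4 or 5 libraries looked at for a library far from the others, which chance gives in about 1 of 20, 4 stood out for the 6 genes. In PRS Regen 2, SOX10 was 10.5 CPM, against 1.58 to 2.01 in the other PRS Regen libraries, a gap of 0.886 of the whole range on the log2(CPM + 0.5) scale. In the same library MBP was 7.99 CPM, against 17.1 to 19.6, a gap of 0.844 of the range. That library had the highest smooth muscle mean of the study and the second lowest epithelial mean, and their part in the result was not tested. ERBB3 was 23.2 CPM in SIS Regen 2, against 176 to 365 in the other SIS Regen libraries (gap 0.734 of the range). ERBB3 was also low in Entero Native 4, with 14.1 CPM against 139 to 267 (gap 0.775 of the range). The epithelial means were 5.15 and 3.87 in those libraries.

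Some neuronal and neuregulin genes changed differently in the SIS arm than in the Entero arm, by edgeR's test of the difference of changes, SIS minus Entero on the log2 scale. The difference was 4.47 for NRG4, -5.04 for SYP, -12.21 for VIP, -7.98 for PRPH and -9.46 for NEFL, a neurofilament subunit. SYP kept its call in 26 of 26 alternatives and VIP in 25, while NRG4 kept it in 11, PRPH in 14 and NEFL in 12 of 26. Neither SIS Regen nor Entero Native held more than 31 reads of NEFL, and SIS Regen held 0 reads of VIP, so the fitted sizes of these 2 differences depend on few counts and on the prior count. On the native side of the SIS change, the neuronal mean was 2.8 in SIS Native 4, against 0.8 to 0.87 in the other SIS Native libraries. Leaving out SIS Native 4 was 1 of the settings that lost the NEFL call, and the NEFL difference ran from -10.27 to -3.26 over the alternatives.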

How the results depend on the processing

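Over 276 alternative values of the 6 genes in graft against native bladder, 24 turned the sign, none of them a called value, and 1 changed a call. The animal as a replicate block changed no call of the 6 and turned GFAP (-2.39) and CDH19 (-0.31) in the Entero arm and SOX10 (0.1) and GFAP (-0.57) in the PRS arm. The smooth muscle term turned GFAP (-0.48 Entero, 0.1 SIS, -0.36 PRS) and SOX10 (0.58 PRS). Leaving out 1 library at a time gave these ranges where a sign turned: in the Entero arm S100B -0.26 to 2.8, GFAP -2.5 to 1.21, CDH19 -0.32 to 0.8 and ERBB3 -0.2 to 0.4; in the SIS arm S100B -0.31 to 0.53; in the PRS arm SOX10 -1.26 to 0.49, GFAP -1.7 to 1.4, CDH19 -0.18 to 2.31 and ERBB3 -0.64 to 0.08. The count of the 6 genes called ranged from 0 to 1 in Entero Ileum against Entero Native, SIS Regen against Entero Ileum and PRS Regen against Entero Ileum, and was 0 in the other comparisons. The cause was not tested.

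Counts over all genes moved more. DESeq2 called 70, 26 and 65 genes in the SIS, PRS and joined arms, against 0, and 1176 for the PRS change minus the Entero change, against 596. The block left 675 of the SIS change minus the Entero change, against 1127, and 240 for PRS minus Entero. With only the compared groups these were 2326 in SIS Regen against Entero Ileum, against 3627, 1040 in PRS Regen against Entero Ileum, against 2399, and 368 for PRS minus Entero. DESeq2 also called 1744 for SIS minus Entero, 20 for PRS minus SIS and 15 in PRS Regen against SIS Regen, and 64, 28 and 114 between native bladders (SIS against Entero, PRS against Entero, PRS against SIS), where edgeR called 0 in these last 5. The smooth muscle term gave 1070 for PRS minus Entero, and leaving out 1 library gave 390 to 739. Depth limits the lowest values: SOX10 and GFAP had 0 reads in 1 graft each, and CDH19 had 3 reads in PRS Native 4.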
